A study of Mus musculus with 3 samples.

Results

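The cells described here were monocytes of 4T1 mammary tumors in which at least 2 of the 5 transcripts Ace, Ass1, Ly6i, Smpdl3b and Cxcl9 were detected. A cell counted as a monocyte when at least 3 of the 8 transcripts Ly6c2, Ccr2, Fn1, Vcan, F13a1, Plac8, Ms4a4c and Chil3 were present, the summed count of C1qa, C1qb and C1qc was below 10, Cd3e and Flt3 were absent, and at most 1 of the neutrophil transcripts Cxcr2, Csf3r, Hdc and Il1r2 was present. The rule selected 378 members among 1506 monocytes, 12472 cells that passed the quality limits and 16143 barcodes in all. The vehicle library held 130 members, the p38i library 152 and the p38KO library 96.

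The study asked how blockade of the kinase p38α changes the immune cells of the tumor microenvironment (TME). Female BALB/c mice, 6 to 8 weeks old, received 200000 4T1-luc cells, a luciferase-carrying line of metastatic mouse breast cancer, in Matrigel in the mammary fat pad number 4. Tumors were taken at day 14, and live CD45+ cells were sorted and sequenced as single cells. The vehicle and p38i groups bore unedited 4T1-luc tumors and were gavaged daily for 10 days from day 4 with DPBS or with 30 mg/kg of the p38 inhibitor LY2228820 (ralimetinib). The p38KO group bore the H9 clone of 4T1-luc, in which Mapk14, the gene of p38α, was inactivated with CRISPR, and its treatment is given as not applicable. The edit was carried by the tumor cells of 1 clone, so the sorted host cells are no check of it. Mapk14 was detected in 28.5% of members in vehicle tumors, 30.9% in p38i tumors and 30.2% in p38KO tumors.

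Each group was a single library made from the pooled tumors of 3 mice, so no comparison between groups had a replicate and none was tested. All intervals below are exact 95% intervals and cover counting error only, not the spread between mice. Both p38 groups were compared with the same vehicle library, and where 3 values follow each other they are for vehicle, p38i and p38KO. The libraries shared 6, 5 and 9 barcodes pairwise, and none of the shared barcodes belonged to a member. Members carried 1246208 UMIs (transcript molecules) in vehicle tumors, 1458546 in p38i tumors and 913754 in p38KO tumors. The median member had 8658, 8508 and 8698 UMIs, against 8215, 6896 and 7959 in the other monocytes of the same libraries.

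Classical monocytes enter tumors from the blood by way of the receptor Ccr2 and then take on features of macrophages or antigen-presenting cells under the influence of local cytokines. Interferon-γ, which T and NK cells release, is known to induce MHC class II genes, the chemokine Cxcl9 and guanylate-binding proteins in such cells. Non-classical monocytes are a patrolling blood subset that depends on the nuclear receptor Nr4a1 and is known in the mouse for Treml4, Ceacam1 and Ace.

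Members were selected as monocytes, and their levels of classical monocyte genes are given as a description. Ccr2 was detected in 96.2% of members in vehicle tumors, 94.7% in p38i tumors and 90.6% in p38KO tumors, and Plac8 in 97.7%, 92.1% and 96.9%. The summed level of 10 classical monocyte genes was 7904, 7326 and 8112 CPM (a gene's UMIs scaled to 1000000 UMIs of the class), against 7272, 6860 and 7991 CPM in the other monocytes. The 10 T cell genes summed to 8.83, 22.6 and 7.66 CPM in members, with 4, 8 and 3 of them above 0, and Cd3e was at 0 by the rule. Of the classical list 8 genes, Ccr2 and Plac8 among them, were those of the monocyte rule.

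The 5 rule genes differed in how many members carried them. Ass1, the argininosuccinate synthase that rebuilds arginine from citrulline, was detected in 83.8% of members in vehicle tumors, 88.2% in p38i tumors and 92.7% in p38KO tumors. Ace, the angiotensin-converting enzyme, is at chr11:105967945-105989964 on the plus strand (GRCm38) and was detected in 27.7%, 23.03% and 18.8% of members. The population is named first for Ace, which only a minority of its cells showed, while Ass1 was in most of them. Ly6i, a GPI-anchored surface protein of the Ly6 family, was detected in 42.3%, 38.2% and 57.3% of members. Smpdl3b, a lipid-modifying phosphodiesterase of the cell surface, was found in 51.5%, 59.2% and 54.2%. Cxcl9, a chemokine for Cxcr3 on activated T cells, was found in 46.9%, 37.5% and 32.3%. These shares are what the rule selected on and are given as a description.

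The rule genes were not equally particular to members. Among Cd3e-positive cells, Ass1 was detected in 25.0% of cells in vehicle tumors, 24.8% in p38i tumors and 31.1% in p38KO tumors. The other monocytes showed it in 24.5%, 28.1% and 28.5%, but the rule limited them to at most 1 rule gene, which lowers this share. Among all monocytes without Ace, members included, Ass1 was detected in 43.0%, 41.3% and 44.95%. The median depth of the Cd3e-positive cells was 5370, 4081 and 4996 UMIs. Neutrophils, called by at least 3 of the 4 neutrophil transcripts, showed Ass1 in 1.80%, 2.14% and 3.63% of cells at a median of 2587, 2353 and 2286 UMIs. Ass1 thus differed between cell classes by more than the counting error, and a single Ass1 UMI was common outside the members. Ace was rarer than Ass1 in Cd3e-positive cells and neutrophils. It was found in 0.661%, 0.137% and 0 (0 of 608) of Cd3e-positive cells and in 1.10%, 1.44% and 0.991% of neutrophils. The other monocytes showed Ace in 8.06%, 4.98% and 2.73%, a share that the limit of 1 rule gene lowers as well. Cxcl9 was detected in 66.1%, 63.7% and 50.8% of C1q-high cells, the macrophage-like cells of the same tumors, which exceeded its share among members. These cells were deeper, at a median of 17769, 16779 and 13445 UMIs against 8658, 8508 and 8698 in members. The shares were not compared at equal depth.

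**Figure D1:**
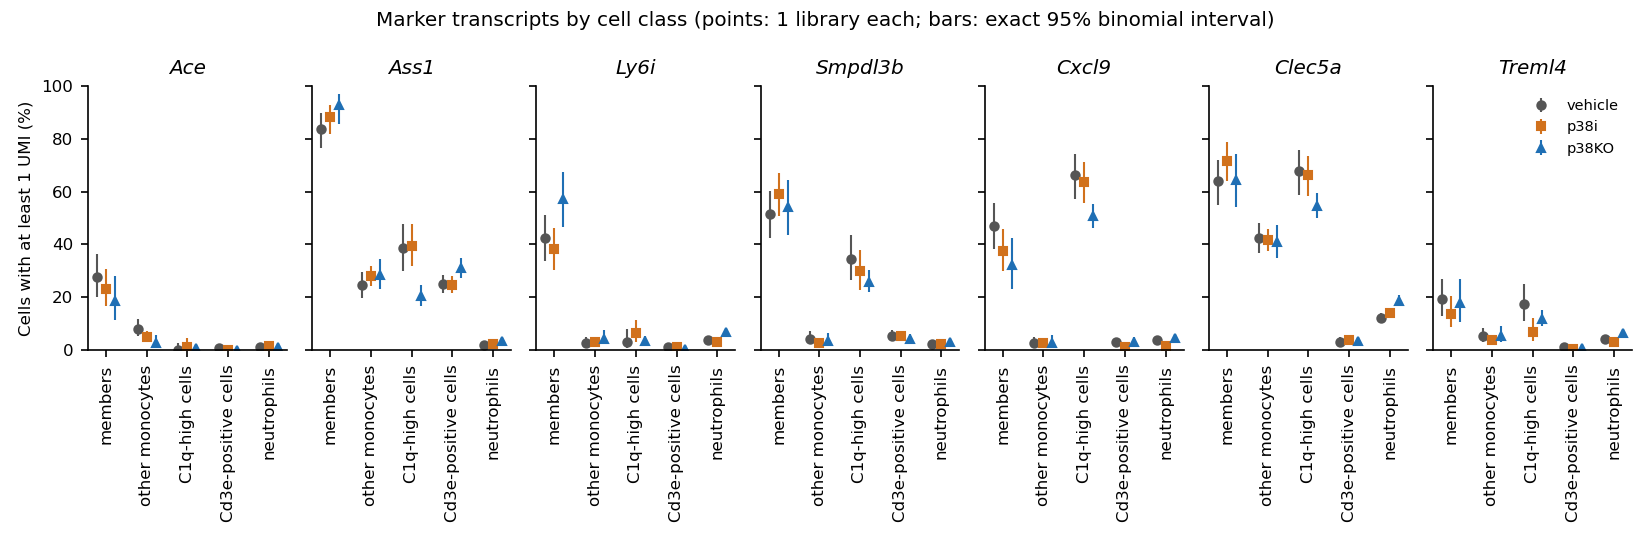
Share of cells with at least 1 UMI of the 5 rule genes and of Clec5a and Treml4 (y axis, percent) in 5 cell classes (x axis). Each point is 1 library and each bar its exact 95% binomial interval. Ass1 marks most members but also 24.8% to 31.1% of Cd3e-positive cells. Cxcl9 is most often detected in C1q-high cells, whose median depth was above that of members, and depth was not equalized.

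Clec5a, a DAP12-coupled lectin receptor of myeloid cells, was named as a marker but was not used by the rule. It was detected in 63.8% of members in vehicle tumors (intervals for the 3 libraries are drawn in the plot of marker shares), 71.7% in p38i tumors and 64.6% in p38KO tumors. The other monocytes showed it in 42.3%, 41.8% and 41.0%. In CPM, members were at 254, 323 and 289 and the other monocytes at 139, 168 and 119, a log2 ratio of 0.87 (0.65 to 1.09), 0.94 (0.77 to 1.11) and 1.28 (1.02 to 1.53). C1q-high cells showed it in 67.7%, 66.2% and 54.7%, with intervals that overlapped those of members in each library, and at 108, 119 and 101 CPM.

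Members made up 29.5% of monocytes in vehicle tumors (25.3 to 34.0), 21.3% in p38i tumors (18.3 to 24.5) and 27.3% in p38KO tumors (22.7 to 32.2). Of all cells that passed the limits they were 3.403%, 3.17% and 2.49%. The share was lowest in p38i tumors, and its interval did not overlap that of vehicle tumors but did overlap that of the p38KO library. The share also varied with depth. In cells of 1500 to 3000 UMIs it was 14.3%, 7.69% and 0 (0 of 23, with an upper limit of 14.8%). In cells of 3000 to 6000 UMIs the share was 28.8%, 13.5% and 34.2%, and in cells of 12000 UMIs or more it was 40.6%, 34.2% and 43.9%, with 28.2%, 23.7% and 23.1% between these depths. The p38i monocytes were shallower than those of the other libraries. With each monocyte thinned to 3000 UMIs, which left out 21, 39 and 23 shallower cells, the share was 15.8% (12.4 to 19.6), 10.5% (8.31 to 13.1) and 15.5% (11.8 to 19.9). After thinning the p38i library was still the lowest of the 3, and its interval overlapped the intervals of both others. Without Cxcl9 in the rule the share was 23.4% (19.5 to 27.7), 17.4% (14.7 to 20.3) and 23.6% (19.2 to 28.4), so the p38i library was again lowest and its interval overlapped both others.

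**Figure D2:**
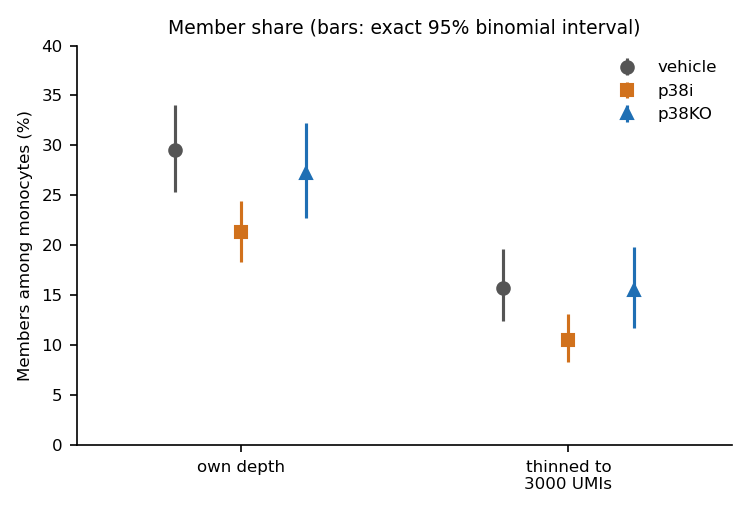
Members as a percentage of monocytes (y axis) at the cells' own depth and after thinning each monocyte to 3000 UMIs (x axis). Each point is 1 library and each bar its exact 95% binomial interval. The p38i library is lowest at both depths, and at the thinned depth the 3 intervals overlap.

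Near the threshold, 78, 95 and 55 members were in on exactly 2 rule genes and 130, 236 and 107 monocytes stayed out with exactly 1. The 2-gene members had summed MHC class II levels of 19876, 17152 and 22828 CPM in vehicle, p38i and p38KO tumors. The monocytes with 1 rule gene had 13377, 12320 and 14002 CPM. The limit of 2 genes was set by the rule, and whether the cells on its sides form separate types was not tested.

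The rule genes occurred in different pairings. Over the 378 members, the most frequent exact combination was Ass1 with Smpdl3b in 68 cells (18.0%), followed by Ass1 with Cxcl9 in 56 and Ass1 with Ly6i in 48. Ace with Ass1 alone was found in 21 members (5.56%), and all 5 genes together in 3 cells. Ass1 was the common partner in each of these pairings.

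The other rule genes differed in how often they occurred with Ace. Among all monocytes of a library, Ass1 was detected in 36.1% of Ace-positive and 43.0% of Ace-negative cells in vehicle tumors, in 36.5% and 41.3% in p38i tumors, and in 60.0% and 44.95% in p38KO tumors, where only 25 monocytes were Ace-positive. The intervals overlapped in each library. Smpdl3b was detected in 31.1% of Ace-positive and 16.1% of Ace-negative monocytes in vehicle tumors, in 28.6% and 13.5% in p38i tumors, and in 28.0% and 16.5% in p38KO tumors, and Ly6i in 24.6% and 12.7%, in 14.3% and 10.3%, and in 36.0% and 17.4%. Both were more frequent with Ace in each library, though the intervals were apart for Smpdl3b in p38i tumors alone. Treml4, a receptor of non-classical monocytes that the rule did not use, was detected in 39.3% of Ace-positive and 4.49% of Ace-negative monocytes in vehicle tumors. The shares were 22.2% and 4.45% in p38i tumors and 56.0% and 5.20% in p38KO tumors. These intervals did not overlap in any library. Clec5a went the other way in vehicle tumors, at 27.9% of Ace-positive and 52.0% of Ace-negative monocytes, and in p38i tumors, at 31.7% and 49.8%, while in p38KO tumors the shares of 44.0% and 47.7% had overlapping intervals.

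The same contrast held inside the members. Ace was detected in 36, 35 and 18 members of vehicle, p38i and p38KO tumors, with median depths of 7714, 8156 and 9694 UMIs against 9054, 8794 and 8550 UMIs in the members without it. The summed level of 12 genes of non-classical monocytes, none of them a rule gene, was 1938 CPM in Ace-positive and 481 CPM in Ace-negative members of vehicle tumors. It was 1522 and 403 CPM in p38i tumors and 2148 and 553 CPM in p38KO tumors. Ace-positive members were the higher in all 3 libraries. This split was chosen after its values were seen, and Ace had a part in choosing the members, so the values are a description.

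Individual genes of non-classical monocytes followed the list. Nr4a1, the nuclear receptor on which these cells depend, was at 156 CPM in Ace-positive and 32.6 CPM in Ace-negative vehicle members, at 83.8 and 13.1 CPM in p38i members, and at 200.1 and 14.8 CPM in p38KO members. Adgre4, an adhesion receptor also known as EMR4, was at 108 and 8.41, at 83.8 and 13.1, and at 153 and 9.41 CPM. Ceacam1, a homophilic adhesion molecule, was at 108 and 9.46, at 41.9 and 10.5, and at 100.1 and 10.8 CPM. Treml4 differed least in p38i tumors, at 38.7 and 14.8 CPM. Gngt2, a G protein subunit, was at 705 and 164, at 674 and 169, and at 700.4 and 249 CPM, and the transcription factor genes Pou2f2 and Klf2 had log2 ratios of 2.04, 1.47 and 1.74 and 1.31, 2.26 and 1.64.

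Other genes were lower in Ace-positive members. Spp1, which encodes osteopontin, was at 47.4 CPM in Ace-positive and 845 CPM in Ace-negative members of vehicle tumors, at 119 and 1697 CPM in p38i tumors, and at 17.7 and 1141 CPM in p38KO tumors. Fn1, the fibronectin gene, was at 339 and 1377, at 464 and 1532, and at 371 and 1527 CPM. Ly6a, which encodes Sca-1, was at 37.3 and 315, at 58.0 and 219, and at 23.5 and 480 CPM. MHC class II was lower as well, at 14344 and 24020 CPM summed over 8 genes in vehicle tumors, 12728 and 20068 CPM in p38i tumors and 13408 and 27070 CPM in p38KO tumors. Across 2658 genes compared, 17 were at least 2-fold higher in Ace-positive members in all 3 libraries (0.640%), Ace among them, and 36 were at least 2-fold lower (1.35%). Genes of non-classical monocytes were thus higher, and Spp1, Ly6a and MHC class II lower, where Ace was detected. By the rule, a member without Ace had to carry at least 2 of the other rule genes, and a member with Ace only 1. Cxcl9 was at 644 CPM in Ace-positive and 1067 CPM in Ace-negative members of vehicle tumors. It was at 74.2 and 664 CPM in p38i tumors and at 383 and 1007 CPM in p38KO tumors. The part of this selection in the lower values was not tested. Fn1 is one of the monocyte genes of the rule, and the summed classical monocyte list was not lower with Ace, at 8961 and 7576 CPM in vehicle tumors, 8879 and 6906 CPM in p38i tumors and 8169 and 8098 CPM in p38KO tumors.

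**Figure D3:**
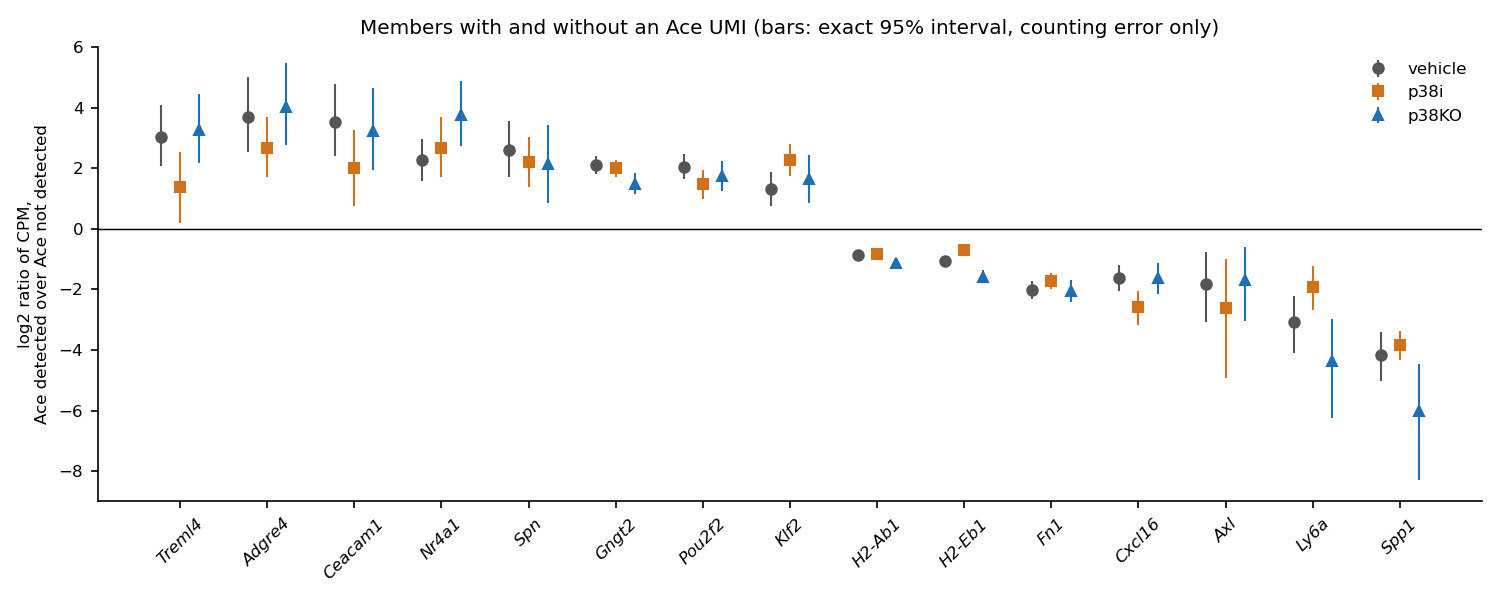
Log2 ratio of CPM in members with an Ace UMI over members without (y axis, log2 scale) for 15 named genes (x axis). Each point is 1 library and each bar an exact 95% interval of counting error. The 8 genes on the left are above 0 and the 7 genes on the right below 0 in all 3 libraries.

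Against the other monocytes, members were marked by MHC class II. Since the rule drew on the same cells, the following contrast is a description of what it selected. In the vehicle library 295 of 6548 genes with at least 50 counts were past 2-fold in either direction (4.51%), in p38i tumors 240 of 7459 (3.22%) and in p38KO tumors 353 of 6155 (5.74%). Those higher in members were 1.66%, 1.65% and 1.92% of the genes and those lower 2.84%, 1.57% and 3.82%. In all 3 libraries, 39 of 5976 genes were at least 2-fold higher in members (0.653%) and 41 at least 2-fold lower (0.686%). The median log2 ratio over all genes was 0.01, 0.05 and -0.03.

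Of 7 MHC class II genes with enough counts, 6 were past 2-fold higher in each of the 3 libraries, and the list's median log2 ratio was 1.38, 1.21 and 1.51. H2-Ab1, the β chain of I-A that presents peptides to CD4+ T cells, was at 3438 CPM in members and 1287 CPM in other monocytes of vehicle tumors. It was at 3061 and 1328 CPM in p38i tumors and at 4077 and 1264 CPM in p38KO tumors. Cd74, the invariant chain, was at 9709 and 4410, at 8329 and 4094, and at 10811 and 3855 CPM. H2-DMa, part of the peptide-loading machinery, was the gene that did not reach 2-fold, with log2 ratios of 0.80 (0.68 to 0.91), 0.56 (0.45 to 0.67) and 1.00 (0.86 to 1.14). Ciita, the master regulator of these genes, was at 125 and 72.5, at 128 and 65.3, and at 159 and 58.7 CPM. Members had the higher value for each of these genes in each library. The 10 dendritic cell genes, with Flt3 at 0 by the rule, summed to 61.0 CPM in members and 59.9 CPM in other monocytes of vehicle tumors. They summed to 84.3 and 44.5 CPM in p38i tumors and to 120 and 71.4 CPM in p38KO tumors. At least 3 of them were detected in 0, 2.63% and 1.04% of members and in 0.323%, 0.178% and 0.391% of other monocytes. The part of dendritic cells in the MHC class II levels was not tested.

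Of the interferon-γ response genes 24 of 27, 27 of 28 and 23 of 26 were above other monocytes, where 3315 of 6548, 4253 of 7459 and 2869 of 6155 of all genes were. Past 2-fold higher were 9, 4 and 7 of them, and none was past 2-fold lower. The list's median log2 ratio was 0.79, 0.56 and 0.44. Iigp1, an immunity-related GTPase, was at 99.5 CPM in members and 22.9 CPM in other monocytes of vehicle tumors, at 60.3 and 22.6 CPM in p38i tumors and at 89.7 and 26.8 CPM in p38KO tumors. Gbp2, a guanylate-binding protein, was at 395 and 174, at 291 and 161, and at 337 and 152 CPM. Cxcl10, a second ligand of Cxcr3, was at 657 and 212 CPM in vehicle tumors and at 542 and 315 CPM in p38i tumors, but at 327 and 344 CPM in p38KO tumors. The transcription factor gene Irf1 had log2 ratios of 0.13, 0.09 and 0.10, and Irf8 had -0.12, -0.28 and -0.14. These values lay near the median of all genes. No rule gene was on this list.

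To compare cells at 1 depth, the monocytes were thinned to 3000 UMIs and divided by the number of rule genes still detected. MHC class II was higher with each further rule gene, from 9030 CPM at 0 genes to 13045 CPM at 1 gene and 24894 CPM at 2 or more in vehicle tumors. The levels were 7577, 13192 and 22479 CPM in p38i tumors and 8950, 14956 and 25039 CPM in p38KO tumors. The interferon-γ list went from 4409 to 6643 and 9444 CPM, from 4515 to 6333 and 7770 CPM, and from 4663 to 7233 and 7889 CPM. The order was the same in all 3 libraries at equal depth. Cxcl9, which interferon-γ is known to induce, was among the rule genes counted, so the order is a description of what was selected. The order without Cxcl9 is not given here. Genes of glycolysis and hypoxia had no common order. They were at 16775, 19929 and 17313 CPM with 0, 1 and 2 or more rule genes in vehicle, at 17152, 16497 and 17662 CPM in p38i, and at 13557, 17174 and 18876 CPM in p38KO, where they did increase with the number of rule genes.

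**Figure D4:**
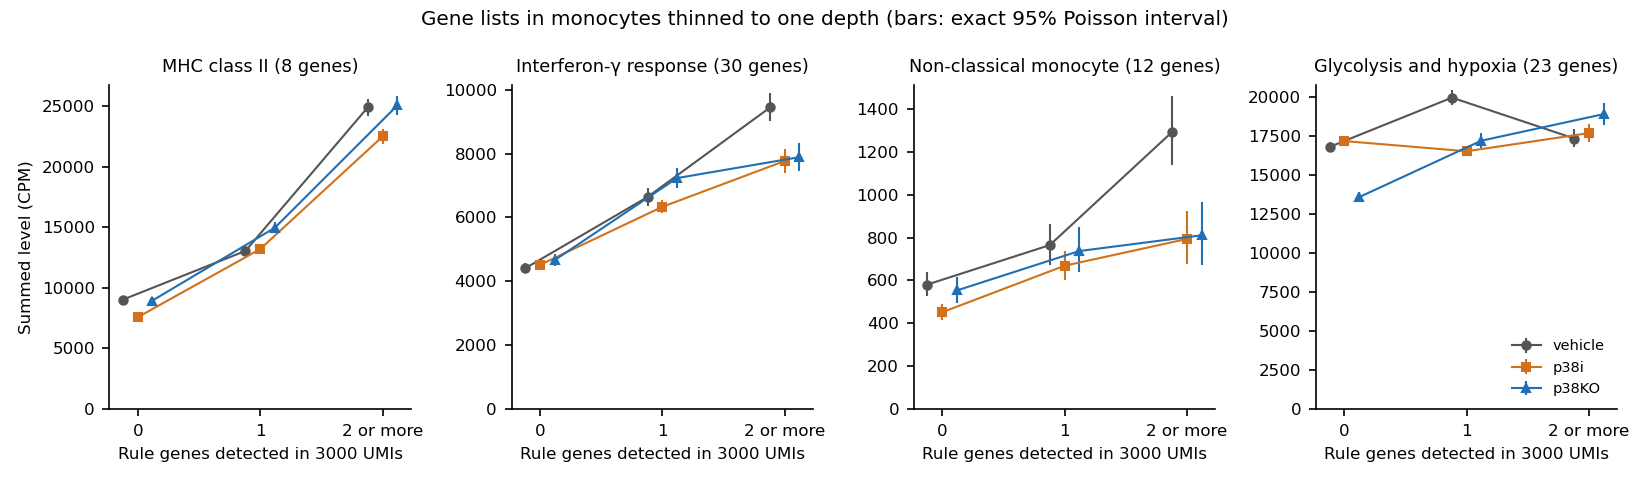
Summed CPM of 4 gene lists (y axes, starting at 0) in monocytes with 0, 1 and 2 or more rule genes detected after thinning to 3000 UMIs (x axis). Each point is 1 library, and bars are exact 95% Poisson intervals. The MHC class II and interferon-γ lists increase with the number of rule genes in each library. Cxcl9, itself induced by interferon-γ, is one of the rule genes counted.

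The promoters of these genes were searched for interferon motifs, the GAS motif TTCNNNGAA and the ISRE motif (GAAA, 2 bases of any kind, GAAA), in the RefSeq promoters of GRCm38.p6 from 250 bases before to 50 after the start. GAS reads the same on both strands, ISRE was searched on both, and a promoter with overlapping matches was counted once. Of all 32851 promoters 11.3% held a match. This share is per promoter, while a gene below counted as matched if any of its promoters did. The shares of genes are thus not on the same base. Of the interferon-γ list 23 of 30 genes had a promoter in the table and 18 of these held a match (78.3%), but of the MHC class II list 1 of 6 did. Of the 5 markers Ace, Ass1, Ly6i, Cxcl9 and Clec5a, 4 had a promoter and 0 held a match, and of the 39 genes higher in members 4 of 27 did (14.8%) and of the 41 genes lower in members 7 of 26 did (26.9%). A match is a string of letters and not a bound site. The windows below show these motifs in capitals, read 5′ to 3′ along the strand of the gene, because they belong to named genes that were higher in members in at least 2 libraries. They are Cxcl10 (chr5:92349083-92349112, minus strand, ISRE), Gbp2 (chr3:142620594-142620623, plus strand, ISRE in reverse), Serpina3g (chr12:104236104-104236132, plus strand, GAS) and H2-DMb2 (chr17:34145021-34145049, plus strand, GAS).
Cxcl10: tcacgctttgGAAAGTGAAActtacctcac
Gbp2: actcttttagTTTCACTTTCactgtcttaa
Serpina3g: taagttatagTTCCCAGAAatcacccggt
H2-DMb2: agggttgtatTTCCTGGAAatgcttcagc

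Serpina3g, a protease inhibitor, was at 113 CPM in members and 41.9 CPM in other monocytes of vehicle tumors, at 111 and 31.9 CPM in p38i tumors and at 141 and 47.0 CPM in p38KO tumors. H2-DMb2 was at 91.5 and 42.3, at 102 and 35.5, and at 77.7 and 27.3 CPM. Both were higher in members in every library.

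Several further genes outside the rule were at least 2-fold higher in members in all 3 libraries. Ly6a was at 250 CPM in members and 39.7 CPM in other monocytes of vehicle tumors, at 185 and 31.4 CPM in p38i tumors and at 395 and 80.8 CPM in p38KO tumors. It was carried by 30.0%, 25.7% and 32.3% of members, so a minority of cells supplied it. Cxcl16, a chemokine and scavenger receptor, was at 446 and 133, at 463 and 119, and at 554 and 171 CPM. The complement factor B gene Cfb had log2 ratios of 1.68, 1.73 and 1.93. The receptor tyrosine kinase gene Axl had 1.68, 1.74 and 2.42, and Acod1, whose enzyme makes itaconate, had 1.70, 1.62 and 1.96. Treml4 was also on this side, at 36.9 and 8.39, at 19.9 and 6.91, and at 38.3 and 8.46 CPM.

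Chemokines were found on both sides, and Ccl2, Ccl7, Ccl9 and Ccl6 were lower in members. Ccl2, a ligand of Ccr2, was at 120 CPM in members and 330 CPM in other monocytes of vehicle tumors, at 117 and 382 CPM in p38i tumors and at 211 and 591 CPM in p38KO tumors. Ccl7, a second ligand of Ccr2, was at 43.3 and 145, at 21.9 and 121, and at 101 and 299.8 CPM. Ccl9 had log2 ratios of -1.12, -1.45 and -1.05, and Ccl6 had -0.85, -1.22 and -1.66. Of the chemokines with enough counts, 7 of 15 in vehicle tumors, 6 of 16 in p38i tumors and 8 of 16 in p38KO tumors were at least 2-fold lower and 3, 3 and 4 at least 2-fold higher, where 2.84%, 1.57% and 3.82% of all genes were lower and 1.66%, 1.65% and 1.92% higher. Among the latter was Ccl5, at 172 and 83.9, at 177 and 33.6, and at 360 and 104 CPM. Thbs1, which encodes thrombospondin-1, was at 267 and 695, at 165 and 435, and at 51.4 and 368 CPM, and the platelet chemokine gene Pf4 was at 80.2 and 500.3, at 136 and 301, and at 29.5 and 362 CPM.

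Among the 41 genes lower in members were Gzma, Prf1, Ncr1, Klrd1 and Klre1 of the NK cell list. The 8 NK cell genes summed to 104 CPM in members and 702 CPM in other monocytes of vehicle tumors, with Gzma the most abundant and Klra8 alone at 0 in both. They summed to 15.1 and 432 CPM in p38i tumors, where Ncr1, Klrb1c, Eomes, Klra8 and Klre1 were at 0 in members, and to 30.6 and 756 CPM in p38KO tumors, where Klrb1c, Prf1, Eomes, Klra8 and Klre1 were at 0 in members. Cells with 2 or more detected markers of NK, T, B, mast, tumor or plasmacytoid dendritic (Siglech) cells made up 3.08%, 3.95% and 11.5% of members and 12.3%, 6.58% and 16.0% of other monocytes. Without those cells, 17 of 5179 genes were at least 2-fold lower in members (0.328%), of which 13 were among the 41, and 35 were at least 2-fold higher (0.676%), of which 31 were among the 39. Ccl2, Ccl7, Ccl9, Thbs1, Pf4 and F13a1 stayed on the lower side. The cells were left out by lymphoid markers, so the NK cell genes are not read here. This alternative was added after the values were seen.

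Of 12 other arginine genes 1, the arginine transporter gene Slc7a2, was at least 2-fold higher in vehicle tumors and none was past 2-fold in p38i tumors, and of 11 genes 1, the spermine synthase gene Sms, was at least 2-fold lower in p38KO tumors. The median log2 ratio was -0.11, -0.05 and 0.11. Gatm, the arginine:glycine amidinotransferase, was not on this list and was named after its values were seen, at log2 ratios of 1.30, 1.08 and 1.11, and 1.14, 0.98 and 0.88 without the cells with markers of other types. Asl, the lyase that acts after Ass1, was at 55.4 and 44.999, at 56.9 and 42.9, and at 35.0 and 41.8 CPM in members and other monocytes. Nos2, the inducible nitric oxide synthase, was at 82.7 and 97.6, at 117 and 89.1, and at 159 and 125 CPM. The log2 ratio of Nos2 was -0.24 (-0.58 to 0.10), 0.40 (0.13 to 0.66) and 0.35 (0.05 to 0.65), so in vehicle tumors its interval included 0. Of other genes of the angiotensin pathway, Agt and Mme were at 0 in members of each library, and Anpep, another surface peptidase, was at 32.9 and 11.8, at 48.7 and 11.9, and at 53.6 and 23.03 CPM.

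Members also differed among themselves by Cxcl9. Members with Cxcl9 had 461 CPM of Ly6a and those without had 48.5 CPM in vehicle tumors, 382 and 50.7 CPM in p38i tumors and 702 and 220.1 CPM in p38KO tumors. Those with Cxcl9 were the higher in all 3 libraries. This division was chosen after its values were seen.

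Between the groups, most genes of the members differed little. Of 5623 genes with at least 50 counts, 61 were at least 2-fold higher (1.08%) and 49 at least 2-fold lower (0.871%) in p38i than in vehicle members. Of 4941 genes, 47 were at least 2-fold higher (0.951%) and 52 at least 2-fold lower (1.05%) in p38KO than in vehicle members. In the other monocytes, 48 of 7860 genes were at least 2-fold higher (0.611%) and 121 lower (1.54%) with p38i, and 152 of 7248 were higher (2.10%) and 50 lower (0.690%) with p38KO. The median log2 ratio over all genes was 0.04 for p38i and -0.00 for p38KO.

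The levels of the 5 rule genes among members depend on the selection and are a description. Cxcl9 was at 967 CPM in vehicle, 538 CPM in p38i and 891 CPM in p38KO members, a log2 ratio to vehicle of -0.85 (-0.98 to -0.71) and -0.12 (-0.25 to 0.01). In p38KO members 1 cell held 28.9% of the Cxcl9 UMIs, and without the highest cell of each library the ratio was -0.37 (-0.52 to -0.22). Ly6i was at 99.5, 66.5 and 179 CPM, or -0.58 (-0.98 to -0.19) and 0.85 (0.51 to 1.20). Ace was at 76.2, 48.7 and 54.7 CPM, or -0.65 (-1.11 to -0.19) and -0.48 (-1.002 to 0.03). Ass1 was at 390, 352 and 453 CPM and Smpdl3b at 94.7, 105 and 104 CPM. Clec5a, which the rule did not use, was at 254, 323 and 289 CPM, or 0.35 (0.14 to 0.56) and 0.19 (-0.05 to 0.43).

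Most immediate-early genes, which stress and growth signals induce rapidly, were lower in both p38 groups, 10 of 14 with p38i, where 2497 of all 5623 genes were lower, and 11 of 13 with p38KO, where 2482 of 4941 were. Dusp1, the phosphatase that switches off p38 and related kinases, was at 286 CPM in vehicle, 79.5 CPM in p38i and 76.6 CPM in p38KO members. It was detected in 53.8%, 34.2% and 33.3% of members, and its log2 ratio to vehicle was -1.85 (-2.16 to -1.54) and -1.90 (-2.29 to -1.53). Fos, a subunit of AP-1, was at 417, 211 and 128 CPM. Both p38 libraries were below vehicle for both genes. In p38i members 5 of 14 genes of this list were at least 2-fold lower and the list's median log2 ratio was -0.86, while in p38KO members 3 of 13 were and the median was -0.32. Nfkbia and Ier2 of the same list had log2 ratios of 0.22 and 0.33 in p38i and of 0.22 and 0.19 in p38KO members. Dusp1 was not particular to members. It was at 528, 172 and 158 CPM in the other monocytes, at 89.5, 21.8 and 28.3 CPM in C1q-high cells, at 155, 59.4 and 86.9 CPM in Cd3e-positive cells and at 2142, 695 and 1269 CPM in neutrophils.

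Further genes lower in both p38 groups encode signaling and inflammatory proteins. Rgs1, a regulator of chemokine receptor signaling, was at 266 CPM in vehicle, 81.6 CPM in p38i and 94.1 CPM in p38KO members, a log2 ratio of -1.71 (-2.02 to -1.40) and -1.50 (-1.86 to -1.15). Ptgs2, which encodes cyclooxygenase-2, was at 223, 79.5 and 87.6 CPM. Ccrl2, an atypical receptor that presents chemerin, was at 221, 75.4 and 126 CPM. Values of p38i and p38KO members were each below the vehicle value for these genes. The other monocytes had log2 ratios of -1.43 and -1.83 for Rgs1, -1.39 and -0.61 for Ptgs2, and -0.81 and -0.88 for Ccrl2. These lower levels were thus not particular to members. Osm, the cytokine oncostatin M, was at 108, 47.3 and 54.7 CPM, and Klra2, a lectin-like inhibitory receptor, at 163, 100.1 and 97.4 CPM. In the other monocytes Osm had log2 ratios of -1.06 and 0.11. Klra2 was at 83.1, 65.5 and 83.7 CPM there, with log2 ratios of -0.34 and 0.01.

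Some genes higher in both p38 groups rested on few cells, while others, such as Txnip and Aplp2, were widely carried. Txnip was detected in 42.3%, 61.8% and 46.9% of members and Aplp2 in 53.1%, 61.8% and 67.7%. Timp1, an inhibitor of matrix metalloproteinases, was at 23.3 CPM in vehicle, 135 CPM in p38i and 173 CPM in p38KO members, a log2 ratio of 2.54 (1.97 to 3.15) and 2.89 (2.32 to 3.52). It was detected in 9.23%, 17.8% and 14.6% of members, and 1 cell supplied 39.1% of its p38i and 41.1% of its p38KO UMIs. Without the highest cell of each library the log2 ratios were 2.16 and 2.48, and without members that carried markers of other cell types the p38KO ratio was 1.80, and without the top 5% of doublet scores it was 2.10. Il7r, the interleukin-7 receptor, was more evenly carried. It was detected in 16.9%, 36.2% and 35.4% of members at 97.1, 171 and 217 CPM, a log2 ratio of 0.82 (0.50 to 1.15) and 1.16 (0.82 to 1.497). In the other monocytes Il7r was at 189, 209 and 214 CPM.

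Of the chemokines, Ccl24, an eosinophil attractant, was at 580 CPM in vehicle, 1338 CPM in p38i and 1539 CPM in p38KO members, a log2 ratio of 1.21 (1.08 to 1.33) and 1.41 (1.28 to 1.54). Cxcl3, a neutrophil attractant, was at 62.6, 192 and 302 CPM, or 1.62 (1.25 to 1.998) and 2.27 (1.90 to 2.65). Cxcl3 was detected in 9.23%, 14.5% and 9.38% of members, and 1 cell held 28.2%, 17.5% and 39.5% of its UMIs. For Ccl24, 1 cell held 13.6%, 18.0% and 30.7%. In the other monocytes Ccl24 was at 1165, 1555 and 556 CPM and Cxcl3 at 601, 611 and 180 CPM, so for p38KO the direction there was opposite. Cxcl2, a further neutrophil attractant, was at 552, 162 and 512 CPM in members. Leaving out the highest cell of each library, the p38KO log2 ratio of Cxcl2 went from -0.11 to -0.65. Slpi, a secreted protease inhibitor, was at 163, 333 and 519 CPM in members, and 1 p38KO cell held 43.9% of its UMIs.

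**Figure D5:**
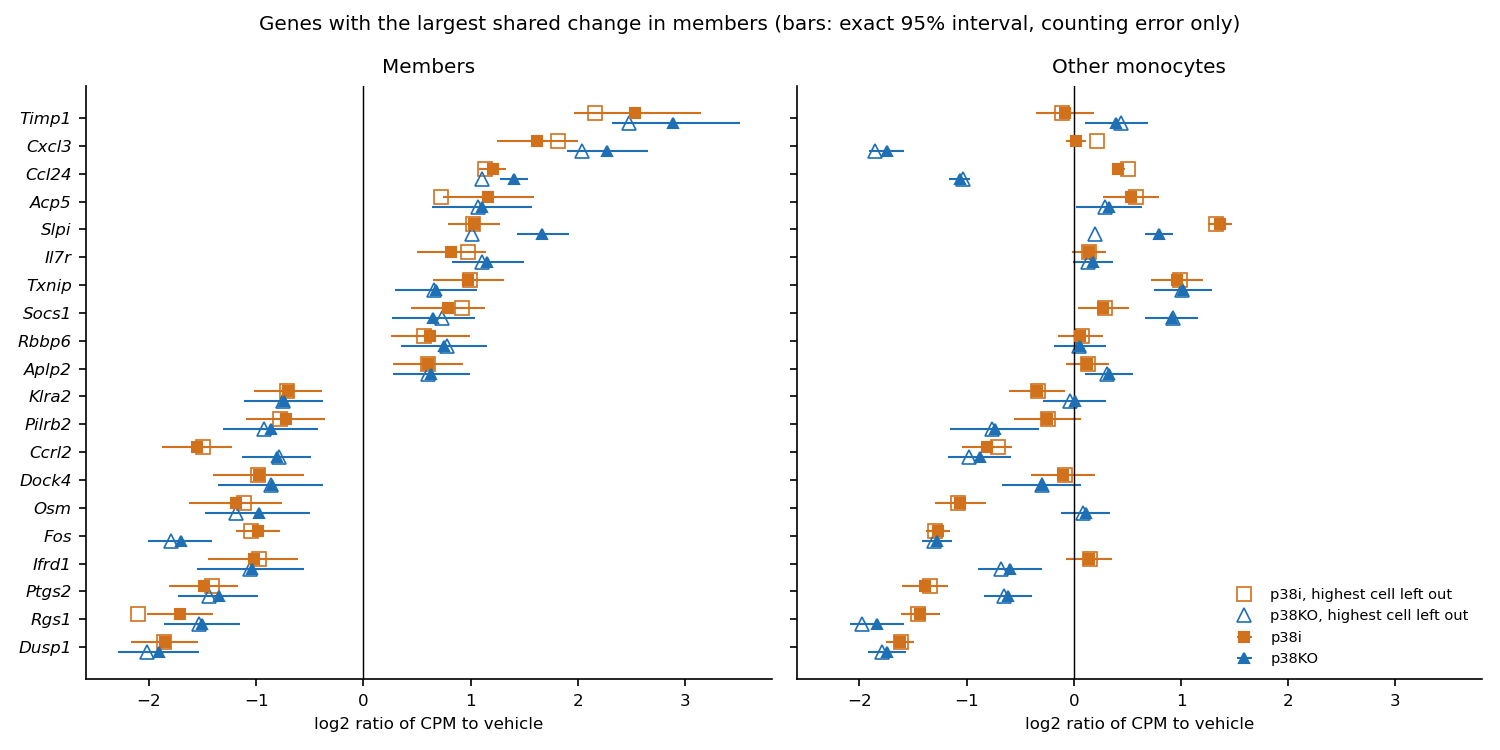
Log2 ratio of CPM to the vehicle library (x axes) of the 20 genes with the largest change in both p38 groups (y axis), in members and in other monocytes. Filled symbols with bars are all cells with an exact 95% interval of counting error, and open symbols leave out the cell with the highest count in each library. Dusp1 and Rgs1 lie below 0 in both panels, and for p38KO Cxcl3 and Ccl24 lie above 0 in members and below 0 in other monocytes.

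Some genes had different ratios with p38i and with p38KO. Genes of the type I interferon response, antiviral genes such as Rsad2 and Isg15, had a median log2 ratio of -0.53 in p38i members, with 21 of 22 genes below vehicle and 4 at least 2-fold lower, and of 0.34 in p38KO members, with 18 of 22 above vehicle and none past 2-fold. Of all genes, 2497 of 5623 were below vehicle in p38i members and 2459 of 4941 above it in p38KO members. Rsad2 was at 631 CPM in vehicle, 272 CPM in p38i and 478 CPM in p38KO members, and Isg15 at 660, 418 and 768 CPM. The other monocytes had a median of -0.08 for p38i and 0.64 for p38KO. All 14 genes of MHC class I presentation were below vehicle in p38i members by less than 2-fold, with a median of -0.24, and the median in p38KO members was 0.04. MHC class II had medians of -0.20 and 0.18, the latter -0.065 without members that carried markers of other cell types, and the interferon-γ list -0.24 and -0.09. Hspa1a, a stress-induced chaperone gene, was at 148, 47.3 and 106 CPM, and Il1b, the interleukin-1β gene, at 2361, 1283 and 1846 CPM.

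In p38KO members, Thbs1 was at 51.4 CPM against 267 CPM in vehicle and 165 CPM in p38i members, a log2 ratio of -2.38 (-2.85 to -1.93). Vcan, the versican gene and part of the monocyte rule, was at 33.9, 100.3 and 106 CPM in p38KO, vehicle and p38i members. Il1a, the interleukin-1α gene, was at 175, 60.2 and 55.5 CPM and Inhba, which encodes a subunit of activin A, at 233, 101 and 146 CPM. For each of these 4 genes the p38KO value lay outside the range of the other 2 libraries. In the other monocytes the p38KO log2 ratios were -0.92 for Thbs1, -1.25 for Vcan, -0.67 for Il1a and 0.85 for Inhba. Only Il1a thus went the other way there. For Inhba, 1 cell held 36.6% of the UMIs in p38KO and 33.3% in vehicle members. In the p38i library the neutrophil gene S100a9 was at 546 CPM against 217 CPM in vehicle members, but 1 cell held 61.6% of its p38i UMIs and without the highest cells the log2 ratio was 0.10. In p38KO members S100a9 was at 85.4 CPM and in 51.0% of cells against 71.5% in vehicle, a log2 ratio of -1.35, and of -1.26 (-1.66 to -0.88) without the highest cells. In the p38i library Ccl17, a ligand of Ccr4, was at 110 CPM against 4.81 CPM in vehicle and 37.2 CPM in p38KO members. It came from 3.29%, 2.31% and 3.12% of the p38i, vehicle and p38KO members, and 1 cell held 56.9%, 66.7% and 58.8% of its UMIs.

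Markers of other cell types moved with the groups as well. The 8 tumor cell genes summed to 7.22, 5.48 and 35.0 CPM in vehicle, p38i and p38KO members, with 3, 3 and 5 genes above 0. Epcam was at 0 in vehicle and 28.5 CPM in p38KO members, where it came from 4.17% of cells. The 8 mast cell and basophil genes summed to 0.802, 0 and 17.5 CPM, with Mcpt8 and Ms4a2 at 0 in each library. The 10 neutrophil genes summed to 1129, 1569 and 989 CPM, with S100a8 the most abundant. C1qa was detected in 14.6%, 9.21% and 17.7% of members, and the macrophage list summed to 4443, 3487 and 5282 CPM with Apoe the most abundant. The part of these cells or of free RNA in the differences between groups was not tested.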

How the data were processed

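The deposited files are UMI counts per gene and barcode, which the authors made with Cell Ranger (6.0.0 per the file headers) on mm10. The submitters' processing notes also name R 4.2.1 and Seurat 5. The study removed barcodes under 1500 counts, under 300 genes or over 20% mitochondrial counts, and the same limits here left 12472 of 16143 barcodes (3820, 4793 and 3859 in the vehicle, p38i and p38KO libraries).

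From the counts, UMIs were summed over the members of a library and divided by their total (CPM). Ratios have exact conditional binomial intervals, sums exact Poisson and shares exact Clopper-Pearson intervals. A count of 0 was set to 0.5 in ratios. Genes needed 50 counts over the classes compared, and a gene was past the fold at 2-fold. With 1 library per group no test was run.

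Named genes were the rule and marker genes, Mapk14, the genes of the lists and of the cell type markers, and the ranked genes: 12 per direction for members over other monocytes by the least favourable library, and 10 per direction for both p38 groups and for each, with at least 100 counts and 100 CPM, leaving out mitochondrial, ribosomal, Gm and Rik genes. Genes named for the Ace division that no list holds were chosen after their values were seen. The members and all lists were chosen with earlier results of these data known.

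Scrublet (scanpy 1.11.5, expected rate 5%) marked 2 cells per library as doublets, too few to have worked, so none was removed. Members held 6, 5 and 1 cells of the top 5% of scores. The interval code was tested on simulated data. Python 3.11.15, numpy 2.4.6, scipy 1.17.1 and pandas 2.3.3 were used. Alternatives changed the rule, the cell limits, the depth, doublets, the scaling, the weight of cells and the minimum count, and 3 were added after seeing the data. Some genes of the lists are not reported here.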

Additional observations from a re-analysis of the deposited data

Results flagged for a closer look

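Both genes below differed between p38KO and vehicle in opposite directions in members and in other monocytes, and the difference was not tested, since each group was 1 library. Cxcl3 had a log2 ratio of 2.27 in members and -1.74 in other monocytes, and 2.04 and -1.86 without the highest cell of each library. Ccl24 had a log2 ratio of 1.41 in members and -1.07 in other monocytes, and 1.11 and -1.03 without the highest cell. Mast cell and basophil genes were also higher in p38KO than in vehicle other monocytes, at 190 against 1.91 CPM. Tumor cell genes were at 104 against 5.34 CPM.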

How the results depend on the processing

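No paired analysis was possible because each group was 1 library. Over the alternatives, 249 values of shares, counts past 2-fold and list medians stayed within their counting spread or within 1.5 times the reported count, 28 moved further, and none of those past 2-fold changed sign. With at least 3 rule genes the member share was 11.8% (8.95 to 15.2) in the vehicle, 7.98% (6.10 to 10.2) in the p38i and 11.6% (8.49 to 15.5) in the p38KO library. With monocytes thinned to 3000 UMIs the share was 15.8%, 10.5% and 15.5%, and without Cxcl9 in the rule it was 23.4%, 17.4% and 23.6%. Under each of these settings the vehicle and p38i intervals overlapped. Genes at least 2-fold higher and lower numbered 245 and 135 for p38i and 187 and 161 for p38KO at a minimum of 20 counts, and 1242 and 1571 and 1770 and 1068 with no minimum. For p38i over vehicle members, the MHC class II median was -0.35 without Cxcl9 and -0.10 as a mean of single-cell CPM, and the glycolysis median was -0.030 without Cxcl9. For p38KO, at least 3 rule genes gave -0.28 for the interferon-γ list and -0.10 for the matrix and repair list, and leaving out cells with markers of other types gave -0.065 for MHC class II, against 0.18 with all members. For members over other monocytes, at least 3 rule genes gave 1.15 for MHC class II in the vehicle library and 1.02 in the p38i library, 0.40 for the interferon-γ list and -0.33 for glycolysis in the p38i library, and leaving out Cxcl9 gave 0.39 and 0.91 for the interferon-γ and MHC class II lists of the p38i library. The cause of these shifts was not tested. Of the values for single genes 163 stayed within the counting spread and 17 moved.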

Other observations

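Glycolysis and hypoxia genes were compared between the p38KO and vehicle libraries in both classes of monocytes. All 23 measured genes were lower in p38KO than in vehicle other monocytes, with a median log2 ratio of -0.42. Of all 7248 genes compared there 2997 were lower, and the median over all genes was 0.06. In members 17 of 22 genes of the list were lower with a median of -0.13, where 2482 of all 4941 genes were lower and the median over all genes was -0.00. The difference between members and other monocytes was not tested. In the other monocytes the mast cell and basophil genes summed to 1.91 CPM in vehicle and 190 CPM in p38KO tumors. The tumor cell genes summed to 5.34 and 104 CPM there. The part of such cells or of free RNA in these differences was not tested. The list summed to 17317 CPM in members and 16783 CPM in other monocytes of the vehicle library, 15758 and 16249 CPM in the p38i library and 15870 and 12979 CPM in the p38KO library. The 14 cell cycle genes summed to 294, 569 and 257 CPM in vehicle, p38i and p38KO members and to 355, 370 and 642 CPM in the other monocytes, with Hmgb2 the most abundant.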
